A study of Mus musculus with 16 samples.

Results

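The natriuretic peptide system was followed in the mouse heart through 9 genes chosen by their role. Nppa, Nppb and Nppc encode the peptide ligands, Npr1, Npr2 and Npr3 the receptors, Corin and Furin the enzymes that cut the precursors, and Mme the peptidase that degrades the mature peptides. All 9 are among the 55487 gene identifiers of the deposited count table, and 8 of them are among the 18275 genes that passed the filter on low counts. Nppc did not pass.

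Poly(A)-selected RNA from the apex of the heart was sequenced in 16 male mice, with 4 animals in each of 4 groups. Ctrl mice were wild-type (WT), and KO mice carried a deletion of Cardinal, a noncoding transcript of the heart annotated as Gm12295. Transverse aortic constriction (TAC) narrows the aortic arch with a ligature so that the left ventricle pumps against a raised pressure, and the sham operation left out the ligature. Hearts of the Ctrl sham, Ctrl TAC, KO sham and KO TAC groups were collected 4 weeks after surgery, and the age of the animals is not given in the sources used here.

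Natriuretic peptides are hormones that the heart releases when its walls are stretched, and they promote loss of salt and water, relax blood vessels and restrain cardiac growth and fibrosis. In the adult, the atria make most of the atrial peptide, while the ventricle reactivates Nppa and Nppb under load, which makes both widely used markers of hypertrophy. The receptors encoded by Npr1 and Npr2 are guanylyl cyclases that make cyclic GMP inside the target cell, and the receptor encoded by Npr3 removes peptide from the circulation.

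Each of the 3 ligands carries a ring of residues closed by a bond between a pair of cysteines, and this ring makes contact with the receptors. The coding sequence of the ring is shown for Nppb, a ligand gene that rose, and for Nppc, one that was barely detected, because it is the stretch that the ligands have in common. It covers 17 codons in exon 2 of both genes, read here 5′ to 3′ in the direction of transcription from the GRCm38 sequence of GENCODE release M21 transcripts, with the codons of the cysteines in capitals. The stretches lie at chr4:147986464-147986514 on the plus strand (Nppb) and at chr1:86669667-86669717 on the minus strand (Nppc).
Nppb ring: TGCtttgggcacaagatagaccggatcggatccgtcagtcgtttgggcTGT
Nppc ring: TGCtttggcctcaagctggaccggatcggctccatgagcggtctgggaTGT
Nppb and Nppc were identical at 40 of the 51 bases.

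Nppa and Nppb are neighbours. Nppa (ENSMUSG00000041616) spans chromosome 4 from 148000722 to 148002079 and Nppb (ENSMUSG00000029019) from 147985788 to 147987205, both on the plus strand, with 13516 bases between them. The start regions of both genes are shown because these 2 genes had the largest log2 fold changes among the members between TAC and sham hearts. The Nppa sequence covers the 250 bases before the RefSeq start (GRCm38.p6, chr4:148000472-148000721, plus strand).
Nppa start region: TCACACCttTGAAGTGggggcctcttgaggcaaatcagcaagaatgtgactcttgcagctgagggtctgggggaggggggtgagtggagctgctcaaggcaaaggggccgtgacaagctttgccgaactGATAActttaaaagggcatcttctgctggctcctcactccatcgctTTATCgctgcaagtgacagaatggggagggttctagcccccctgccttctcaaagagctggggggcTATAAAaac
Capitals mark matches to motifs of cardiac transcription factors or of the core promoter. The first is a T-box site (GGTGTGA) on the other strand, followed by an NKX2-5 site (TNAAGTG). Further on lie a pair of sites for GATA factors (GATAA), the second of them on the other strand. The last match is a TATA box (TATAAA). The Nppb stretch (GRCm38.p6, chr4:147985793-147985822, plus strand) ends 78 bases before the RefSeq start and is limited to 30 bases. The GENCODE start of Nppb at 147985788 lies upstream of the RefSeq start, so by GENCODE the stretch is inside the gene.
Nppb start region: caGGAATGcagctGATAAatcagaGATAAc
Its capitals mark an M-CAT element (CATTCC, on the other strand), the binding site of TEAD factors, and a pair of GATA sites. The Nppb window also held a TATA box between its stretch and its start.

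The windows searched ran from 250 bases before to 50 bases after the RefSeq start, and both strands were searched. Of the 32851 mouse windows in the RefSeq promoter table, 25.4% held a GATA site, 14.7% an M-CAT element, 13.6% a TATA box, 11.5% an NKX2-5 site and 3.98% a T-box site. The other motifs searched were an AP-1 site (TGANTCA, 7.81% of windows), an NFAT core (GGAAA, 61.3%), a CArG box (1.63%) and a MEF2 site (0.557%). None of these patterns had a match in the windows of Nppa and Nppb. Only matches to the fixed pattern of each motif were counted, so a site that departs from its pattern was not found. Among the members, GATA matches were found in Nppa and Nppb and in no window of Nppc, Npr1, Npr2, Npr3, Corin, Furin or Mme. With 25.4% of all windows holding a GATA site, this does not set Nppa and Nppb apart. Other marked motifs were found elsewhere too, a TATA box in Nppc and Furin, an NKX2-5 site in Furin and an M-CAT element in Mme. These matches describe letters in a window and are no evidence of binding.

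The other members lie apart from each other. Nppc (ENSMUSG00000026241) is on chromosome 1 (86666291 to 86670571, minus strand), Npr1 (ENSMUSG00000027931) on chromosome 3 (90450591 to 90465866, minus strand), Npr2 (ENSMUSG00000028469) on chromosome 4 (43631935 to 43651244, plus strand) and Npr3 (ENSMUSG00000022206) on chromosome 15 (11839896 to 11907287, minus strand). Corin (ENSMUSG00000005220) is on chromosome 5 (72300025 to 72504473, minus strand), Furin (ENSMUSG00000030530) on chromosome 7 (80388585 to 80405436, minus strand) and Mme (ENSMUSG00000027820) on chromosome 3 (63241537 to 63386030, plus strand). Positions are those of GENCODE release M21 on GRCm38.

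The depth was 53169437 to 79404714 counts per library, and each tested member had at least 250 counts in each library. The library labelled KO TAC 4 went against its label, with 377 counts (4.55 CPM) of the deleted gene Gm12295. The other 7 KO libraries had 17 to 35 counts and the Ctrl libraries 173 to 456. The members' log2 fold changes in KO TAC, and the gene list counts after TAC in KO animals, are therefore given with and without that library. Levels, cell type markers, ratios between members and genes of similar pattern are given only with it. Without Ctrl TAC 2 the number of genes called between KO TAC and Ctrl TAC was 63 in place of 489, so the members are also given without that library in this comparison. The animal numbers of Ctrl TAC 2, 3 and 4 and of KO TAC 4 belong to 1 numbering series and those of the other 12 libraries to another, and the labels do not say what the series mean.

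The unit of level is CPM (a gene's reads for every 1000000 counts of its library, with totals scaled by TMM), and levels of different genes are compared as CPM per kb of exon. Nppa and Nppb had the highest mean levels among the tested members. In Ctrl sham hearts Nppa had 151 ± 34.6 and Nppb 86.5 ± 37.6 CPM per kb (SD, n = 4), and their libraries overlapped. Corin, the protease that cuts the atrial precursor on the surface of the cardiomyocyte, followed with 37.5 ± 3.84 CPM per kb.

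The receptor genes were lower. Npr2, the receptor for the peptide made from Nppc, had 13.0 ± 0.489, Npr1, the receptor for the peptides made from Nppa and Nppb, 5.01 ± 0.471, and Npr3, the clearance receptor, 2.05 ± 0.168 CPM per kb in Ctrl sham (SD, n = 4). Furin, a convertase that cuts many precursors in the secretory pathway, lay between Npr2 and Npr1 with 7.59 ± 0.743, and Mme, which encodes neprilysin, was the lowest tested member with 1.26 ± 0.184 CPM per kb. In Ctrl sham the lowest Nppb library (39.7) was also below the highest Corin library (42.3). Below the ligands, no pair of neighbours in this order overlapped between libraries in any of the 4 groups. The libraries of Nppa and Nppb overlapped in Ctrl sham, KO sham and Ctrl TAC and were apart in KO TAC, at 2295 to 2932 against 570 to 685 CPM per kb.

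**Figure D1:**
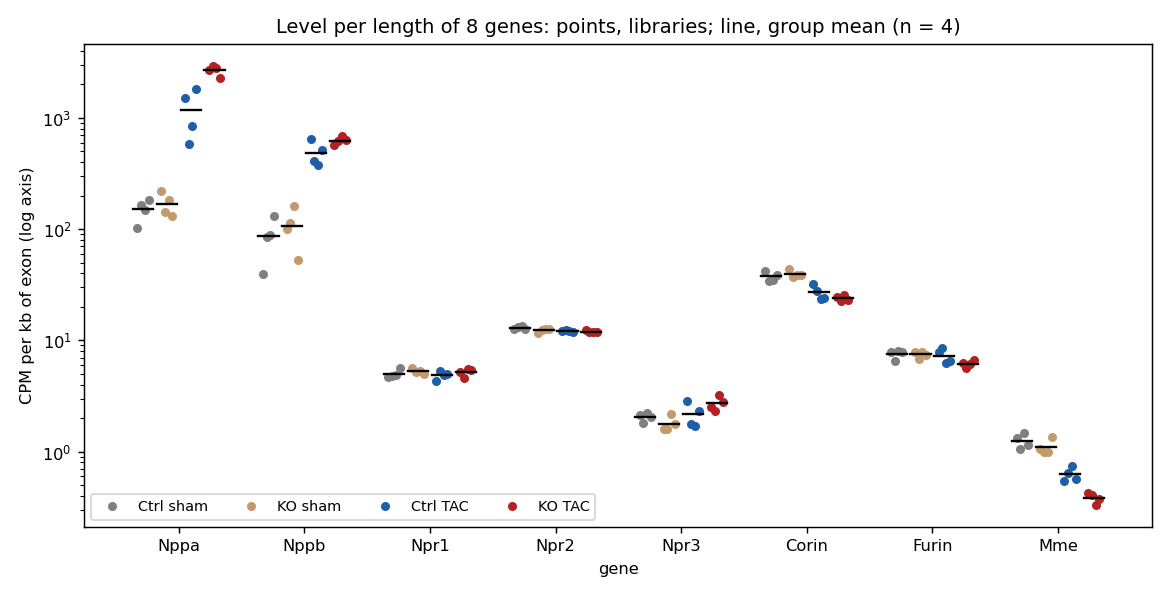
Level of each tested member in CPM per kb of exon on a log axis, with 1 point per library and a line at the mean of 4 libraries per group. Nppa and Nppb rise from means of 151 and 86.5 in Ctrl sham to 2684 and 626 in KO TAC, while Npr1 and Npr2 lie within narrow ranges.

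Nppc, which encodes the C-type peptide made mainly by vessel lining and brain, was barely detected. The table held 0 counts in 12 libraries and 13 counts in the other 4 together, 2 in KO sham 3, 4 in Ctrl TAC 2, 4 in KO TAC 1 and 3 in KO TAC 4. A count of 0 allows up to 0.0418 to 0.0587 CPM in these libraries (3 counts, counting error only). No difference between groups was detectable at this depth.

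TAC against sham in Ctrl animals measures how the system responds to load. Of the 8 tested members, 4 were called by edgeR's quasi-likelihood test at an adjusted p under 0.05, against 20.0% of all genes tested. Nppa and Nppb rose, and Corin and Mme fell. In a model with a term for the animal-number series Nppa, Nppb and Mme were called, and 13.6% of all genes. The 2 rises ranked 37th and 60th of 18275 log2 fold changes from the top, and the fall of Mme ranked 297th from the bottom.

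Nppa, which encodes atrial natriuretic peptide, was at 89.3, 144, 129 and 159 CPM in Ctrl sham 1 to 4. It was at 1298, 501, 724 and 1579 CPM in Ctrl TAC 1 to 4. Every TAC library was above every sham library, and the TAC libraries were spread widely, with a coefficient of variation of 48.6% against 23.0% in sham. The log2 fold change was 2.98 (SE 0.34, adjusted p 5.01e-05), a 7.87-fold rise with a 95% interval of 4.76 to 13.0.

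Nppb, which encodes B-type natriuretic peptide, was at 31.0, 66.7, 69.5 and 103 CPM in Ctrl sham 1 to 4 and at 506, 318, 297 and 398 CPM in Ctrl TAC 1 to 4. The groups were again apart, and the order of the TAC libraries was not that of Nppa, since Ctrl TAC 1 was the highest for Nppb and Ctrl TAC 4 for Nppa. Its log2 fold change was 2.49 (SE 0.37, adjusted p 0.000411), or 5.63-fold with an interval of 3.24 to 9.78. Without Ctrl TAC 2 the log2 fold changes were 3.20 for Nppa and 2.57 for Nppb.

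**Figure D2:**
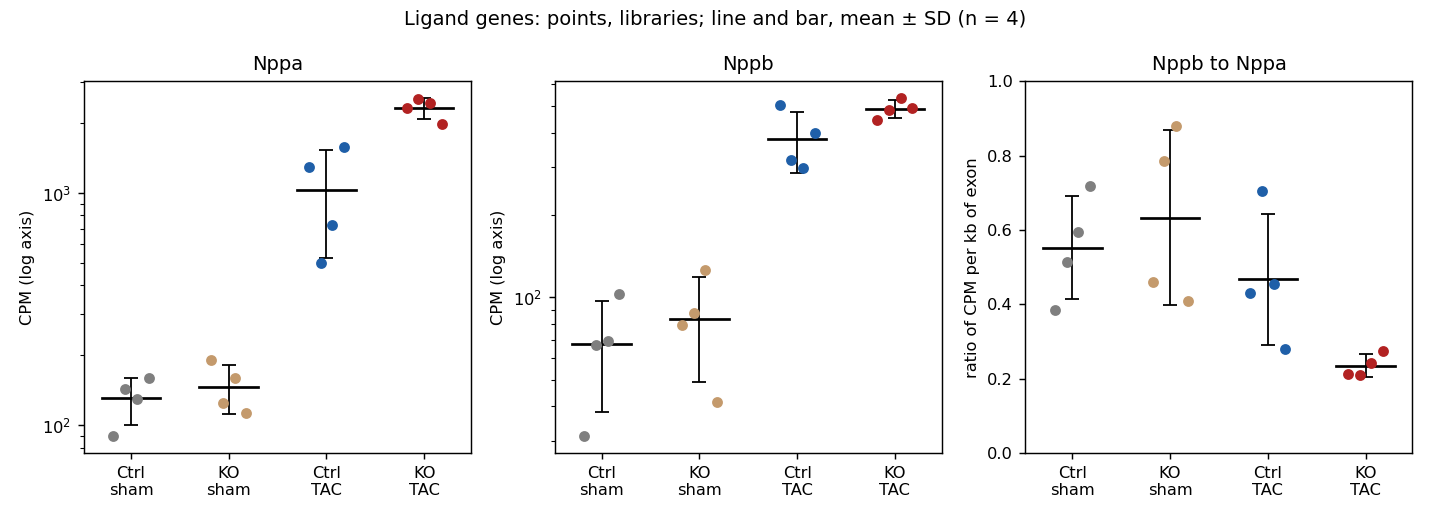
CPM of Nppa and Nppb on log axes, and the ratio of Nppb to Nppa in CPM per kb, with 1 point per library and lines and bars for the mean ± SD of 4 libraries. For both genes every TAC library lies above every sham library, and the ratio is lowest in KO TAC, with a mean of 0.235.

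The receptor genes did not follow the ligands in Ctrl animals. Npr1 was at 22.2, 22.8, 23.6 and 27.2 CPM in Ctrl sham and at 20.8, 25.4, 23.4 and 24.1 CPM in Ctrl TAC, with a log2 fold change of -0.03 (95% interval -0.19 to 0.13). Npr2 was at 58.5 to 63.3 CPM in Ctrl sham and at 55.6 to 58.3 CPM in Ctrl TAC. All 4 TAC libraries of Npr2 were below all 4 sham libraries, as in 20.5% of all genes in either direction, but the log2 fold change of -0.10 (SE 0.04) did not pass, with an adjusted p of 0.109. Npr3 was at 17.1 to 20.8 CPM in Ctrl sham and at 26.6, 16.5, 16.1 and 21.9 CPM in Ctrl TAC, so that 2 TAC libraries lay above and 2 below the sham range (log2 fold change 0.08, 95% interval -0.25 to 0.40).

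Corin was at 228, 185, 187 and 211 CPM in Ctrl sham and at 174, 151, 128 and 129 CPM in Ctrl TAC. All TAC libraries were below all sham libraries, and the log2 fold change was -0.48 (SE 0.09, adjusted p 0.00134). In a model with a term for the animal-number series it was -0.33 and was not called (adjusted p 0.0535). In these bulk samples, fewer cells of a type and less RNA per cell cannot be told apart.

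Furin was at 72.3, 59.5, 74.3 and 72.5 CPM in Ctrl sham and at 71.5, 78.3, 58.0 and 59.6 CPM in Ctrl TAC, with ranges that overlapped (log2 fold change -0.06, 95% interval -0.25 to 0.13). Mme was at 15.4, 12.2, 17.0 and 13.4 CPM in Ctrl sham and at 6.28, 7.49, 8.61 and 6.60 CPM in Ctrl TAC. The highest Mme value after TAC was below the lowest sham value, and the log2 fold change was -1.0 (SE 0.13, adjusted p 2.09e-05). Transcripts of the degrading peptidase thus moved in the opposite direction to those of the ligands.

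The same comparison in KO animals called 6 of the 8 tested members, against 34.3% of all genes. Nppa, Nppb and Npr3 rose, and Corin, Furin and Mme fell. In each of the 6 the 4 TAC libraries were apart from the 4 sham libraries, which was so for 34.6% of all genes. Each of the 6 was also called without the library labelled KO TAC 4, which was inside the range of the other KO TAC libraries for Nppb, Npr3, Corin and Mme, below it for Nppa and above it for Furin.

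Nppa was at 190, 124, 159 and 113 CPM in KO sham 1 to 4 and at 2320, 2537, 2446 and 1985 CPM in KO TAC 1 to 4. The KO TAC libraries were close to each other, with a coefficient of variation of 10.4%. The log2 fold change was 3.99 (SE 0.35, adjusted p 2.09e-06), a 15.9-fold rise with an interval of 9.36 to 26.8, and it was 4.05 without KO TAC 4. It ranked 33rd of 18275 from the top.

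Nppb was at 79.0, 88.0, 126 and 41.5 CPM in KO sham and at 445, 483, 535 and 494 CPM in KO TAC. The groups did not overlap, and the log2 fold change of 2.55 (SE 0.37, adjusted p 0.000156, and 2.54 without KO TAC 4) was 5.84-fold with an interval of 3.36 to 10.2.

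Among the receptors, Npr3 was at 15.0, 15.1, 20.4 and 16.6 CPM in KO sham and at 23.8, 21.7, 30.4 and 26.2 CPM in KO TAC. The lowest TAC library was above the highest sham library. The log2 fold change was 0.61 (SE 0.15, adjusted p 0.00549), and it was 0.59 without KO TAC 4. The cyclase receptors were not called: Npr1 had 24.0 to 27.1 CPM in KO sham and 22.0 to 26.6 CPM in KO TAC (95% interval of the log2 fold change -0.19 to 0.13), and Npr2 had 54.9 to 59.2 and 55.1 to 57.6 CPM (interval -0.13 to 0.04). Their log2 fold changes were -0.031 and -0.044 with all libraries and -0.051 and -0.036 without KO TAC 4.

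Corin was at 239, 202, 210 and 209 CPM in KO sham and at 132, 121, 139 and 125 CPM in KO TAC. The ranges were far apart, with a log2 fold change of -0.73 and -0.72 without KO TAC 4 (SE 0.09 and adjusted p 9.90e-06 for all libraries). Furin was at 72.2, 62.9, 72.4 and 68.0 CPM in KO sham and at 56.9, 51.3, 56.6 and 61.0 CPM in KO TAC. The gap between the Furin ranges was small, and the log2 fold change of -0.29 (SE 0.09, adjusted p 0.0220) became -0.33 without KO TAC 4. The Furin call was lost without KO sham 1, KO sham 3 or KO TAC 2 (adjusted p 0.0605, 0.0567 and 0.0737) and with a term for the numbering that sets Ctrl sham 4 and KO sham 1, 2 and 3 apart (0.158).

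Mme showed the largest fall among the members. It was at 12.1, 11.4, 11.5 and 15.5 CPM in KO sham and at 4.89, 4.68, 3.84 and 4.36 CPM in KO TAC. The log2 fold change was -1.51 (SE 0.13, adjusted p 1.02e-07), it was -1.50 without KO TAC 4, and it ranked 206th of 18275 from the bottom.

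**Figure D3:**
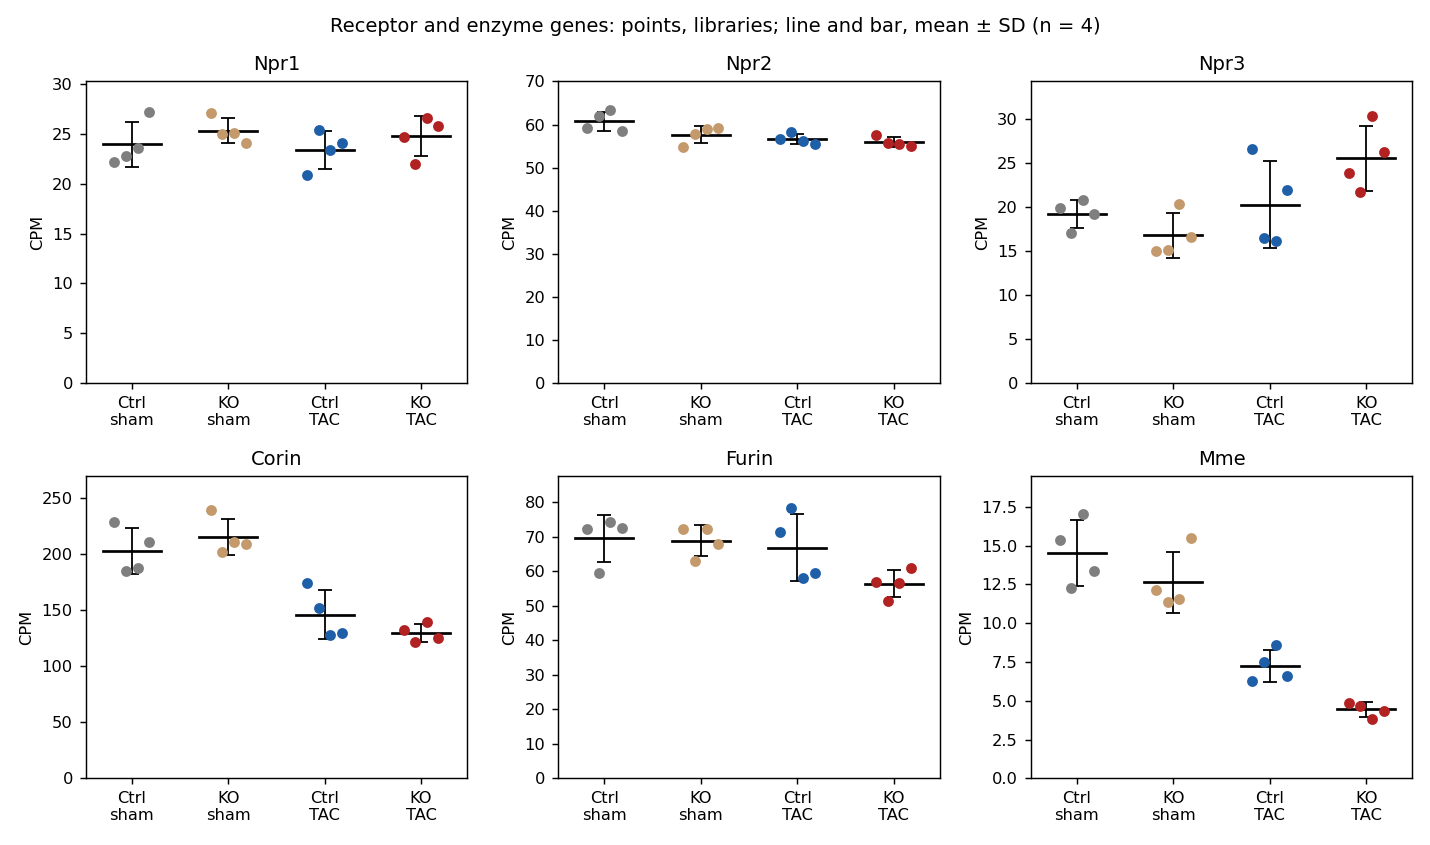
CPM of the receptor and enzyme genes on axes that start at 0, with 1 point per library and lines and bars for the mean ± SD of 4 libraries. Corin and Mme are lower in every TAC library than in every sham library of the same genotype, and Npr1 and Npr2 lie within narrow ranges in all groups.

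KO against Ctrl in TAC hearts asks whether loss of Cardinal alters the loaded heart. A single member, Mme, was called, against 2.68% of all genes. Mme was at 6.28 to 8.61 CPM in Ctrl TAC and at 3.84 to 4.89 CPM in KO TAC, with no overlap, and the log2 fold change was -0.71 (SE 0.13, adjusted p 0.0131). Without KO TAC 4 it was -0.70 (adjusted p 0.0232) and without Ctrl TAC 2 -0.69 (0.0473). The call was lost in the model with a term for the animal-number series (log2 fold change -0.64, adjusted p 0.104), without KO TAC 3 (-0.64, 0.0509) and without Ctrl TAC 2 and KO TAC 4 together (-0.68, 0.0670). The model with the series term called 12 of all genes (0.0657%) in this comparison.

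Nppa was higher in every KO TAC library, at 1985 to 2537 CPM, than in every Ctrl TAC library, at 501 to 1579 CPM. Its log2 fold change of 1.18 (SE 0.31, 95% interval 0.50 to 1.86) did not pass the adjustment (unadjusted p 0.00255, adjusted p 0.0634). Nppa and Mme were the 2 members whose libraries were apart in this comparison, which held for 10.5% of all genes. By DESeq2, which called 6.46% of all genes here, the Nppa difference had an adjusted p of 0.00502 and was called. Ctrl TAC 4 had the highest Nppa of the Ctrl TAC libraries, so leaving it out raises the log2 fold change. Without it edgeR called the difference (log2 fold change 1.47, adjusted p 0.0238) and 3.96% of all genes. The log2 fold change was 1.25 without KO TAC 4 (adjusted p 0.0853) and 0.95 without Ctrl TAC 2 (0.148). Over the 24 alternatives the log2 fold change was 0.95 to 1.47 and the adjusted p 0.00502 to 0.258, with 2 calls.

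Within the animal-number series the order was the same, with no test, but in 1 series the only KO library is KO TAC 4, whose Gm12295 level goes against its label. KO TAC 4 had 1985 CPM of Nppa against 501, 724 and 1579 CPM in Ctrl TAC 2, 3 and 4 of its series. In the other series KO TAC 1, 2 and 3 had 2320 to 2537 CPM against 1298 CPM in Ctrl TAC 1. For Mme, KO TAC 4 had 4.36 CPM against 6.60 to 8.61 CPM, and KO TAC 1, 2 and 3 had 3.84 to 4.89 CPM against 6.28 CPM in Ctrl TAC 1.

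The other 6 tested members overlapped between KO TAC and Ctrl TAC. Nppb was at 445 to 535 CPM against 297 to 506 CPM (log2 fold change 0.37, 95% interval -0.39 to 1.12, adjusted p 0.630). Npr3 was at 21.7 to 30.4 CPM against 16.1 to 26.6 CPM (0.33, interval 0.01 to 0.65, adjusted p 0.247), and Furin at 51.3 to 61.0 CPM against 58.0 to 78.3 CPM (-0.24, interval -0.44 to -0.05, adjusted p 0.159). For Corin, Npr1 and Npr2 the log2 fold change was -0.17, 0.08 and -0.02 (adjusted p 0.341, 0.618 and 0.860). Without KO TAC 4 the values were 0.36 for Nppb, 0.32 for Npr3, -0.28 for Furin, -0.15 for Corin, 0.061 for Npr1 and -0.011 for Npr2. Without Ctrl TAC 2 they were 0.29 for Nppb, 0.25 for Npr3, -0.15 for Corin, 0.12 for Npr1 and -0.0055 for Npr2, and Furin moved to -0.16 (adjusted p 0.454). Without Ctrl TAC 1 Corin was -0.073. None of the 6 was called in these fits.

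KO against Ctrl in sham hearts asks whether the deletion alters the unloaded heart. The libraries of all 8 tested members overlapped, where 1.78% of all genes were apart. By edgeR 0 members were called, as were 0 of all genes (0%). Its unadjusted p was under 0.05 for 0 members and 2.62% of all genes. DESeq2 called 0 members and 3 of all genes (0.0164%). The log2 fold changes were 0.17 (95% interval -0.51 to 0.85) for Nppa, 0.31 (-0.45 to 1.07) for Nppb, -0.20 (-0.52 to 0.13) for Npr3 and -0.20 (-0.46 to 0.06) for Mme. As ratios of KO to Ctrl, the intervals of the ligands run from 0.703 to 1.80 for Nppa and from 0.732 to 2.1 for Nppb. Those of Npr1 (-0.08 to 0.24 log2) and Npr2 (-0.16 to 0.01 log2) are narrower.

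Whether the response to TAC itself differed between genotypes was tested by the interaction term. No member was called by edgeR or by DESeq2. Of all genes edgeR called 2 (0.0109%) and DESeq2 132 (0.722%). An unadjusted p under 0.05 was found for 3 members. These were Nppa (interaction 1.01 log2, 95% interval 0.05 to 1.97, unadjusted p 0.0401, adjusted p 0.422), Npr3 (0.53, 0.07 to 0.98, unadjusted p 0.0253, adjusted p 0.375) and Mme (-0.51, -0.88 to -0.13, unadjusted p 0.0109, adjusted p 0.311). Unadjusted values under 0.05 were found for 11.1% of all genes. Without KO TAC 4 the interactions were 1.08, 0.52 and -0.50. The count of 3 rested on single libraries, since it was 1 without Ctrl TAC 2, 1 without KO sham 2 and 5 without Ctrl TAC 4. The call of Npr3 or Furin in KO and not in Ctrl animals is therefore not shown to be a difference between genotypes. For Nppb the interaction was 0.05 with an interval of -1.01 to 1.12.

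**Figure D4:**
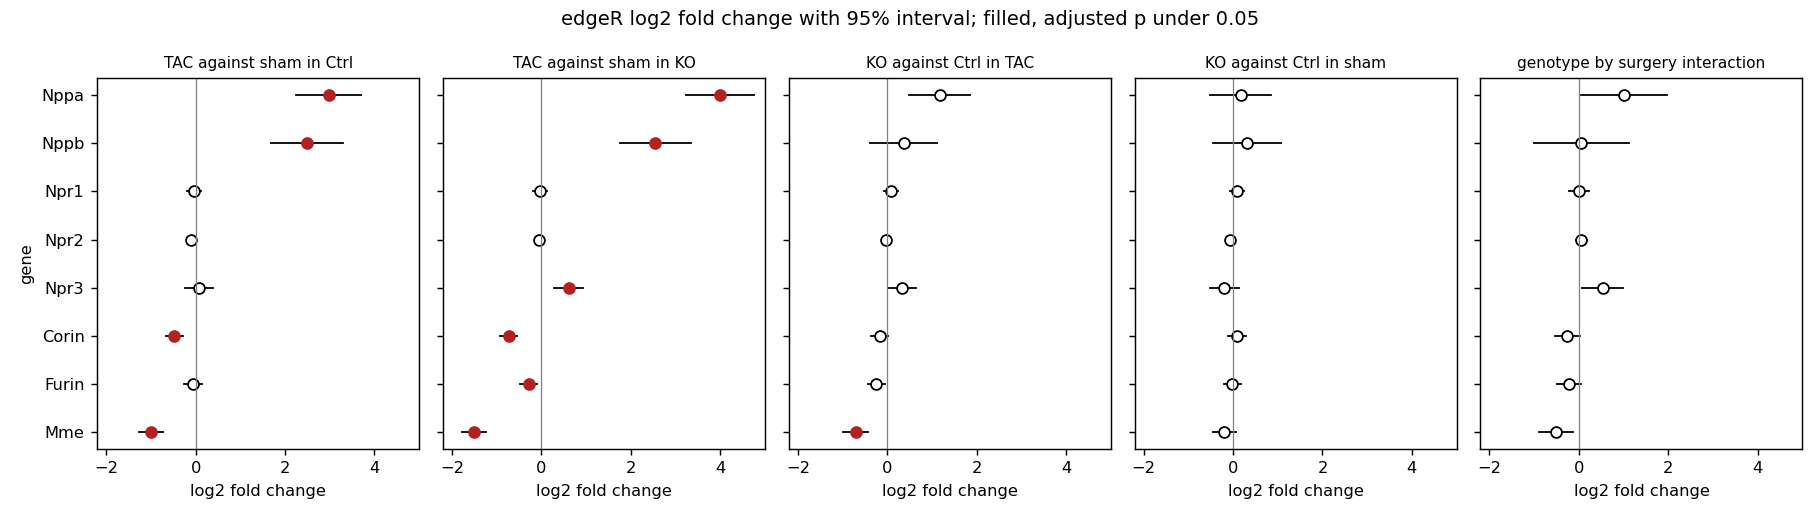
Log2 fold change of each tested member in the 4 comparisons of groups and in the interaction, with the 95% interval as bars and filled points for an adjusted p under 0.05 in edgeR. The ligands lie to the right and Corin and Mme to the left in both TAC comparisons, and Mme is the only filled point between KO TAC and Ctrl TAC.

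The ratio between the ligands was read in each group. Per kb of exon, Nppb had 0.553 ± 0.139 of the level of Nppa in Ctrl sham, 0.633 ± 0.234 in KO sham, 0.467 ± 0.176 in Ctrl TAC and 0.235 ± 0.0304 in KO TAC (SD, n = 4). The KO TAC libraries were at 0.213, 0.211, 0.242 and 0.275, and the lowest Ctrl TAC library at 0.279. For the receptors, Npr3 had 0.411 ± 0.0481 of the level of Npr1 in Ctrl sham, 0.339 ± 0.0572 in KO sham, 0.449 ± 0.146 in Ctrl TAC and 0.523 ± 0.0407 in KO TAC. These ratios are descriptions without a test.

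Nppa shares its locus with Gm13054, an antisense gene whose exons cover 61.5% of the exon bases of Nppa. Whether counting used the strand is not given in the sources used here, so reads from the shared bases cannot be assigned with certainty. Gm13054 was at 0.306 to 0.489 CPM in Ctrl sham, 0.402 to 0.775 in KO sham, 1.72 to 13.4 in Ctrl TAC and 15.3 to 20.8 in KO TAC. Its libraries thus followed the order of the Nppa groups at a level far below that of Nppa. Npr1, Npr2, Npr3, Corin and Furin overlap an antisense gene over 11.7%, 5.70%, 3.42%, 2.72% and 1.29% of their exon bases, and Nppb, Nppc and Mme overlap none.

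The genes around the ligand pair were set beside them. Of the other protein-coding genes within 100 kb of Nppa or Nppb, 6 are given here, of which 5 were tested. Mfn2, which encodes a mitochondrial fusion protein, fell by 0.20 on the log2 scale in Ctrl and by 0.23 in KO animals after TAC (adjusted p 0.00667 and 0.00135), and 2510039O18Rik rose by 0.16 in both (0.0256 and 0.0170), a call that was lost in Ctrl animals without Ctrl TAC 2. Both genes were called in KO animals without KO TAC 4. Clcn6, a chloride transporter gene that ends 2.18 kb beyond Nppa, was at 10.2 to 12.6 CPM in sham and at 10.6 to 12.3 CPM in TAC libraries and was not called (log2 fold changes -0.04 and 0.01). Plod1 and Agtrap were not called, and Draxin did not pass the filter.

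**Figure D5:**
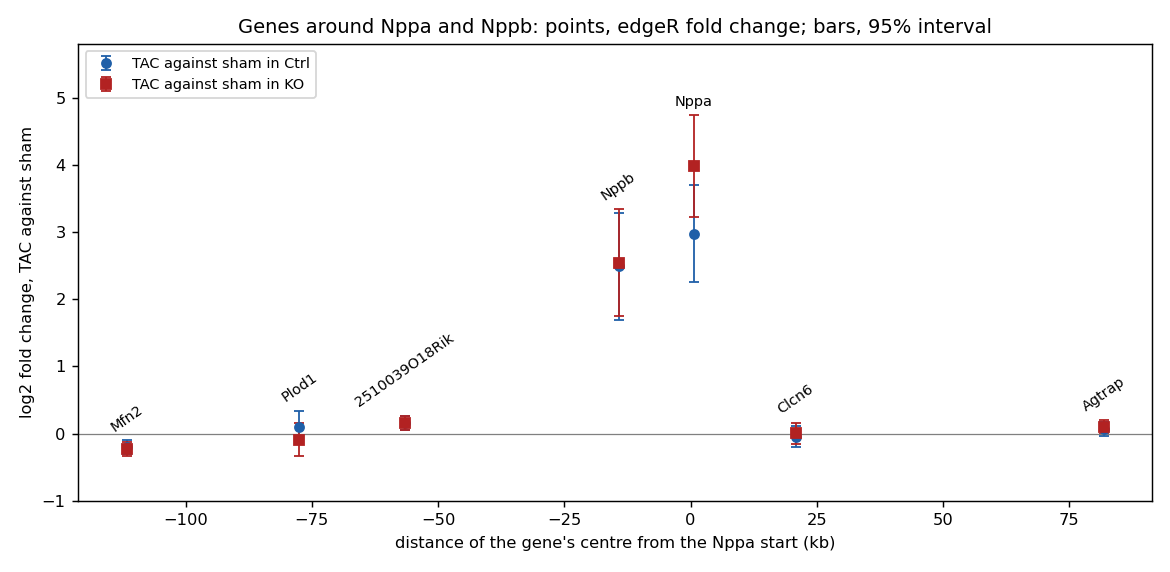
Log2 fold change after TAC in each genotype for the tested genes given here within 100 kb of Nppa or Nppb, plotted by the distance of the centre of each gene from the Nppa start in kb, with 95% intervals as bars. Nppa and Nppb stand between 2.49 and 3.99, and the 5 neighbours lie near 0.

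Downstream of the receptors, a list of 21 genes of cyclic GMP synthesis, action and breakdown was tested in full. In Ctrl animals after TAC 3 were higher and 4 lower, against 10.4% of all genes higher and 9.60% lower, with a median log2 fold change of 0.08 (0.0043 over all genes). The 2 lowest p-values were those of Pln, the phospholamban gene that restrains the calcium pump (-0.47, adjusted p 0.000170), and of Prkg1, the cyclic GMP-dependent kinase (0.58, adjusted p 0.000563). Prkg1 was at 14.7 to 17.1 CPM in Ctrl sham and 20.4 to 26.5 CPM in Ctrl TAC.

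In KO animals 6 of the 21 were higher and 6 lower after TAC, against 17.8% and 16.5% of all genes, with a median of 0.06 (-0.0039 over all genes). Pln had a log2 fold change of -0.58 (adjusted p 7.65e-06) and Rgs2, which damps signals from Gq-coupled receptors and is a target of the kinase, one of -1.15 (adjusted p 2.39e-05). Between KO TAC and Ctrl TAC 1 of the 21 was called, Abcc5, which encodes a transporter that exports cyclic nucleotides, at 48.1 to 53.2 against 54.4 to 64.4 CPM (log2 fold change -0.23, adjusted p 0.0476). That call was lost without KO TAC 4 and without Ctrl TAC 2. Without KO TAC 4 the KO animals had 5 of the 21 higher and 6 lower after TAC. The gene with the next lowest p, Vasp, a substrate of the kinase, had 0.18 (adjusted p 0.105). None was called in sham hearts or for the interaction, with a lowest unadjusted p of 0.160 (Pde9a) and 0.00270 (Abcc5).

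A list of 19 other convertases and peptidases related to Corin, Furin and Mme held 12 tested genes. After TAC 1 was higher and 0 lower in Ctrl animals, with a median of 0.05, and 2 were higher and 2 lower in KO animals, with a median of 0.02 (2 higher and 1 lower without KO TAC 4). These counts are beside 10.4% of all genes higher and 9.60% lower in Ctrl and 17.8% and 16.5% in KO animals. Pcsk5, a convertase of the same family as Furin, rose in both genotypes, from 1.87 to 2.84 CPM in Ctrl (log2 fold change 0.60, adjusted p 0.0160) and from 1.82 to 3.73 CPM in KO (1.03, adjusted p 9.53e-05). Ide, the insulin-degrading enzyme, had the next lowest p in Ctrl animals (-0.22, adjusted p 0.0509), and Ece2, an endothelin-converting enzyme, rose in KO animals (1.03, adjusted p 0.000279). Between the genotypes 0 of the 12 were called in TAC or sham hearts, and the lowest adjusted p in TAC hearts was 0.0951 (Ece2, log2 fold change 0.56).

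Upstream of the ligands, 23 of 24 listed cardiac transcription factors that bind the Nppa or Nppb promoters were tested, and Hand1 did not pass the filter. In Ctrl animals 3 were higher and 4 lower after TAC (median 0.06), and in KO animals 7 were higher and 4 lower (median 0.10), beside the same shares of all genes. Without KO TAC 4 the KO animals had 7 higher and 2 lower, the lower ones being Tbx5 and Gata6. Tbx5 and Tbx20, T-box factors, had the lowest p in both and moved in opposite directions. Tbx5, an activator of Nppa, went from 19.5 to 12.0 CPM in Ctrl (-0.70, adjusted p 9.92e-05) and from 20.6 to 12.9 CPM in KO (-0.68, adjusted p 5.92e-05), and Tbx20 from 53.7 to 78.0 CPM (0.54, adjusted p 0.000106) and from 57.2 to 91.8 CPM (0.68, adjusted p 3.26e-06). Between KO TAC and Ctrl TAC 0 of 23 were called, with Nfatc2 (-0.36, adjusted p 0.0739) and Egr1 (1.51, adjusted p 0.100) having the lowest p, and 0 were called in sham hearts or for the interaction.

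Markers of cell types were read beside these changes, and their part in the results was not tested. Of 8 cardiomyocyte markers 4 were lower and 1 higher after TAC in Ctrl and 6 lower in KO animals, and their summed level was 47761 to 54843 CPM in sham libraries, 41871 to 46760 in Ctrl TAC and 35644 to 37903 in KO TAC. Much of this sum is Myh6, the alpha myosin heavy chain gene, with means of 24607 CPM in Ctrl sham, 23722 in KO sham, 20046 in Ctrl TAC and 15336 in KO TAC. The marker that rose in Ctrl animals was Actn2 (1723 to 2035 CPM), and Ttn (4277 to 4580 CPM) and Myl3 (3913 to 3911 CPM) were not called there. Of 8 fibroblast markers 4 were higher in Ctrl and 7 in KO animals after TAC, with sums of 607 to 723 CPM in sham, 1039 to 1393 in Ctrl TAC and 1452 to 1650 in KO TAC. Much of this rise is in the collagen genes Col1a1, Col1a2 and Col3a1. Col3a1 had means of 99.7 CPM in Ctrl sham, 89.2 in KO sham, 320 in Ctrl TAC and 418 in KO TAC. Dpt stayed level, with means of 54.0, 53.2, 53.8 and 52.8 CPM in the same order of groups. These marker counts are beside 10.4% of all genes called higher and 9.60% lower in Ctrl animals, and 17.8% and 16.5% in KO animals. The sum of 7 macrophage markers was 107 to 145 CPM in sham, 158 to 180 in Ctrl TAC and 165 to 219 in KO TAC, and that of 8 endothelial markers 986 to 1212 in sham and 966 to 1221 in TAC libraries. Of 5 tested endocardial markers 1 was higher and 1 lower after TAC in Ctrl, and 2 were higher and 1 lower in KO animals. The sum of all 6 listed was 97.0 to 110 CPM in Ctrl sham, 95.1 to 116 in Ctrl TAC, 96.2 to 106 in KO sham and 102 to 137 in KO TAC. The fibroblast sum was higher after TAC in both genotypes. Npr3 was called in KO animals and had overlapping libraries in Ctrl animals, and a link between these values was not tested.

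Atrial markers were read in every library, and their part in the results was not tested. Their summed level, over 8 genes, was 21.1 to 25.5 CPM in sham, 21.2 to 23.2 in Ctrl TAC and 24.3 to 28.0 in KO TAC. Myl7, Sln and Bmp10, which define atrial muscle, were at or near 0, with at most 0.822, 0.134 and 0.169 CPM in any library. The other 5 were tested, and their changes ran in opposite directions. Stard10, the largest part of the sum in sham hearts, fell from 16.4 to 20.1 CPM in Ctrl sham to 7.78 to 11.6 CPM in Ctrl TAC, and from 16.9 to 20.5 CPM in KO sham to 5.02 to 7.84 CPM in KO TAC. Dkk3 rose from a mean of 2.21 to 7.12 CPM and from 1.89 to 14.6 CPM, and Clec11a from 0.883 to 2.47 CPM and from 0.867 to 3.21 CPM. Myl4, an atrial myosin light chain gene, rose from 1.38 to 1.91 CPM in Ctrl and was at 1.34 and 1.72 CPM in KO animals without a call, and Fgf12 was not called. Between KO TAC and Ctrl TAC the called gene of this list was Dkk3, at 11.5 to 17.9 against 5.21 to 8.63 CPM.

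Genes with the most similar pattern were named for each tested member by Pearson's r of log2 CPM over the 16 libraries, among 10188 genes, as a description of libraries that share groups. For Nppa these were Mfap4 (r = 0.994), Igfbp7 (0.993) and Serpinf1 (0.990), all of which encode secreted proteins, and for Nppb Arpc1b (0.980), Fbln2 (0.978) and Col4a1 (0.978). For Mme they were Ces1d (0.982), Gpt (0.979) and Hadha (0.979), genes of lipid and amino acid metabolism. Corin was closest to Egln1 (0.958), Fhod3 (0.950) and Whrn (0.949), and Furin to Spock2 (0.912), Abca2 (0.908) and Mast2 (0.907). For the receptors r was lower, with Ago2 (0.888), Nova2 (0.837) and Xrcc3 (0.837) for Npr1, Notch2 (0.884), Dus2 (0.850) and Smarcc2 (0.822) for Npr2, and Arhgap1 (0.898), Eif5 (0.893) and Zhx1 (0.875) for Npr3.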

How the data were processed

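The authors deposited raw read counts per Ensembl gene for 16 libraries. The submitters' processing notes name cutadapt 2.3, FastQC, HISAT2 2.1.0, edgeR 3.26.1 and GRCm38. The counter, annotation and strand setting are not given in the sources used here. Each column was assigned to the sample whose title holds the same animal number. Replicate numbers follow the sample order and pair nothing. Labels do not say whether animals shared litters or surgery days, so p-values measure the spread between these samples.

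Genes were filtered with filterByExpr and scaled by TMM in edgeR 4.0.16 (R 4.3.3). A quasi-likelihood model (glmQLFit, robust) with 1 mean per group was fitted to all 16 libraries, and Benjamini-Hochberg adjusted p under 0.05 was called. An SE is the absolute log2 fold change over the square root of F, and 95% intervals use the t quantile. Total counts were 53169437 to 79404714. GENCODE M21 held 99.5% of the identifiers, exon lengths are unions of its exons, and it may differ from the annotation used for counting. The procedure was tested on simulated counts with 200 genes changed alike in both TAC groups. None was changed between genotypes, so that test did not measure how well genotype differences are found.

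Named genes were the 9 members, the 2 lowest p of each list per comparison, neighbours within 100 kb and the 3 genes most like each member (average log2 CPM of at least 2, no predicted-gene or Rik names). Some items that these rules name are not reported here. The members and lists were chosen with earlier results of these data known. Alternatives were RLE size factors, DESeq2 1.42.0, 2 other filters, adjusted p under 0.01, 2 animal-number terms, fits to the 8 libraries compared, each library left out, and Ctrl TAC 2 and KO TAC 4 left out together. Setting Gm13054 beside Nppa, reading TAC libraries within animal-number series and counting list genes without Ctrl TAC 2 or KO TAC 4 were chosen after seeing the data.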

Additional observations from a re-analysis of the deposited data

Results flagged for a closer look

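In groups of 4 libraries, a library whose gap to the nearest other was large against the range of its group was found for Nppc in KO sham and Ctrl TAC and for Furin in Ctrl sham. Chance gives such a gap in about 1 in 20 groups, but this share has no bearing on Nppc, where a single library with any count among libraries at 0 gives the largest possible gap. Nppc was at 0.0344 CPM (2 counts) in KO sham 3 and at 0.0598 CPM (4 counts) in Ctrl TAC 2, with 0 counts in the other libraries of both groups. Furin was at 59.5 CPM in Ctrl sham 2 and at 72.3 to 74.3 CPM in the other Ctrl sham libraries.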

How the results depend on the processing

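The counts of members called after TAC were within 1.5 times those given under every alternative run (4 in Ctrl and 5 to 6 in KO animals over the 16 omissions of a single library), and the counts in sham hearts and for the interaction stayed at 0. Between KO TAC and Ctrl TAC the count of 1 became 2 with DESeq2 (Mme and Nppa), and 0 with a term for the animal-number series, at an adjusted p under 0.01, and without Ctrl TAC 2 and KO TAC 4 together. The share of all genes called moved as well, from 2.68% to 6.46% with DESeq2. It was 0.0657% (12 genes) with the series term and 0.594% without both libraries. Over the 16 omissions of a single library the count of members called was 0 (without KO TAC 3) to 2 (without Ctrl TAC 4). The share of all genes called ran from 0.342% (without Ctrl TAC 2) to 3.96% (without Ctrl TAC 4) over the same omissions. Of the members called in the comparisons of TAC with sham, Nppa, Nppb and Mme were called under all 24 alternatives in both genotypes, Corin under 23 in Ctrl and 24 in KO, Npr3 under 24 in KO and Furin under 20 in KO.

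Directions that turned belonged to values that were not called, and the cause was not tested. With a term for the numbering of Ctrl sham 4 and KO sham 1, 2 and 3, the log2 fold change of Npr1 was 0.016 after TAC in Ctrl and 0.10 in KO animals, and in sham hearts KO against Ctrl gave -0.056 for Nppa, -0.25 for Nppb and -0.0041 for Npr1. Without Ctrl TAC 2 and KO TAC 4 together, Npr2 was 0.0021 between KO TAC and Ctrl TAC, and the interaction of Nppb was -0.026. A term for the animal-number series gave -0.063 for that interaction. The interaction of Npr1 was -0.000164 with RLE size factors, -0.000751 with DESeq2 and -0.000339 with at least 10 counts in every library. When single libraries were omitted, the ranges that crossed 0 were -0.071 to 0.035 (Npr1), -0.080 to 0.17 (Npr3) and -0.14 to 0.0030 (Furin) after TAC in Ctrl animals, -0.065 to 0.022 (Npr1) after TAC in KO animals, -0.084 to 0.025 (Furin) in sham hearts, and -0.22 to 0.32 (Nppb) and -0.065 to 0.054 (Npr1) for the interaction.

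No paired analysis was possible because the labels give no replicate number shared between groups. With 4 libraries per group, the interval of a ligand difference in sham hearts spans more than 1 log2, and Nppc is below what this depth can compare.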
